A study of Homo sapiens with 22 samples.

Results

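This account covers the genes for ion, phosphate, glucose and organic solute transporters of the SLC4, SLC5, SLC9, SLC10, SLC12, SLC13, SLC17, SLC22, SLC26, SLC34, SLC47 and SLCO families in cultured human renal proximal tubule epithelial cells (RPTECs). Members were all protein-coding rows of the deposited expression table whose symbol, looked up from the Ensembl gene identifier, carried one of these family names. They numbered 104 of 36859 deposited genes, and 55 of them passed the filter on low values (2 or more libraries with 10 normalized counts or more) and were tested. Of the other 49 members, 19 were at 0 in every library, 25 stayed under 10 normalized counts everywhere and 5 reached 10 in a single library. SLC5A3, SLCO4C1, SLC10A1, SLC10A4 and SLC22A3, which carry the same family names, were not analysed here.

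The 22 libraries formed 11 groups of 2, all from hTERT-immortalized RPTECs, and were made to ask how loss of the histone methyltransferase SETD2 and treatment with TGF-β change these cells. Untreated wild type (WT), WT given 10 ng/ml TGF-β for 72 h, and the CRISPR clones KO1 and KO2, each a single clone made with a guide against SETD2 exon 3, were kept in 2% fetal bovine serum (FBS), as was a group labelled KO2 rescue. Rescue1 and Rescue2, single-cell clones of knockout cells carrying FLAG-tagged full-length SETD2 from a lentivirus, were kept in 10% FBS. WT pools transduced with a lentivirus for eGFP, SOX2, OCT2 or PRRX1 were also in 10% FBS. The eGFP pool therefore differed from WT in serum and in vector, which cannot be told apart, and the rescue clones differed from both knockout clones in serum as well. Since nothing in the labels places the duplicates in separate experiments, p-values measure the spread between these samples, which may be technical.

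In the kidney, the proximal tubule takes back most filtered phosphate, glucose, bicarbonate and organic solutes, and secretes organic anions and cations such as urate and drugs. Apical SLC34 and SLC5 carriers use the sodium gradient for phosphate and glucose, SLC9A3 exchanges sodium for protons, basolateral SLC22 carriers bring organic ions in, and SLC47 and SLC17 carriers move organic cations and urate towards the lumen. SLC12 cotransporters and SLC26 anion exchangers serve chloride transport along the nephron, and SLCO proteins take up large organic anions, hormones and prostaglandins.

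The libraries held between 11674491 and 16758645 normalized counts. SETD2 itself was at 1852 and 2061 normalized counts in WT, 1046 and 1130 in KO1, and 1049.8 and 1052 in KO2. It reached 9764 to 10445 in the 4 libraries of Rescue1 and Rescue2, but stood at 834 and 819.6 in the group labelled KO2 rescue, below KO2, so that label was not borne out by its SETD2 transcript. KO1 replicate 2 stood apart, with 14082 genes above 0 against 14709 to 16115 in the other libraries. The 2 WT libraries differed more from each other than the duplicates of any other group, with a median absolute difference of 0.181 over highly expressed genes (log2 scale, range over groups 0.0644 to 0.181). Of the proximal tubule markers outside these families, LRP2 was at most 2.29 normalized counts, HNF4A was at 0 in every library and DPEP1 reached at most 5.94, whereas the renal transcription factors PAX8 and PAX2 were expressed throughout (1528 to 6561 and 404 to 1229 normalized counts). Of the 11 proximal tubule markers listed, 9 were above their floor in at least 1 WT library, PDZK1 and GGT1 being the highest. Markers of other cell types were mixed. UMOD of the loop of Henle and AQP2 of the collecting duct were at or near 0 (highest library 2.4 and 0), but CLDN16, of the loop of Henle, was at 1022 and 1177 in WT and was lower in KO1 (log2 change -4.01 ± 0.36, adjusted p = 4.8e-07) and KO2 (log2 change -3.67 ± 0.36, adjusted p = 2.1e-06). SCNN1A, of the collecting duct, was at 143 and 173 in WT and was lower with TGF-β (log2 change -2.82 ± 0.65, adjusted p = 0.0067), in KO1 (log2 change -2.96 ± 0.65, adjusted p = 0.0019) and in KO2 (log2 change -2.49 ± 0.65, adjusted p = 0.0086). The endothelial marker KDR was at 0.77 and 0 in WT, 123 and 103 in KO1 and 145 and 126 in KO2, whereas CDH5 was at 0 in all 4 knockout libraries. The part of these markers in the changes of the carriers was not tested.

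Several carriers known from the proximal tubule were at 0 or low in these cells, while others, such as SLC17A1, SLC17A3, SLC22A5 and SLC9A3, were expressed in WT. SLC22A6, SLC22A8 and SLC22A12, the organic anion and urate carriers of the proximal tubule, had highest library values of 0, 0 and 0 normalized counts, and SLC5A2, the main glucose carrier, and SLC34A1, the main phosphate carrier, had 7.57 and 8.47, above 0 in 12 and 16 of the 22 libraries. SLC22A2, whose protein shares the abbreviation OCT2 with the transcription factor (POU2F2) expressed in the OCT2 pool, reached at most 4.53. Also untested, at or under 10 normalized counts in all but 1 library, were SLC5A1, SLC5A8, SLC5A10, SLC5A12, SLC34A3, SLC22A4, SLC22A7, SLC22A11, SLC22A13, SLC13A1, SLC13A2, SLC10A2, SLC12A1, SLC4A1 and SLC4A9. Floors set by 3 reads lay at 2.42 to 4.83 normalized counts per library, so values up to this size cannot be told from absence. These floors cover counting error only, and not the shortage of low values in KO1 replicate 2.

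Of the expressed members, the sulphate carrier SLC26A2 stood highest in WT at 332 normalized counts per kb of transcript, with 2877 and 2472 normalized counts in the 2 libraries. The sodium bicarbonate cotransporter SLC4A7 (195 per kb), the anion exchanger SLC26A6 (169), the potassium chloride cotransporter SLC12A4 (161) and the anion exchanger SLC4A2 (157) followed. The duplicates overlapped between neighbours in this order for SLC4A7, SLC26A6, SLC12A4 and SLC4A2, so their ranks were not distinguished. The carnitine carrier SLC22A5 stood at 146 per kb and the urate carriers SLC17A3 and SLC17A1 at 137 and 110.0.

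**Figure D1:**
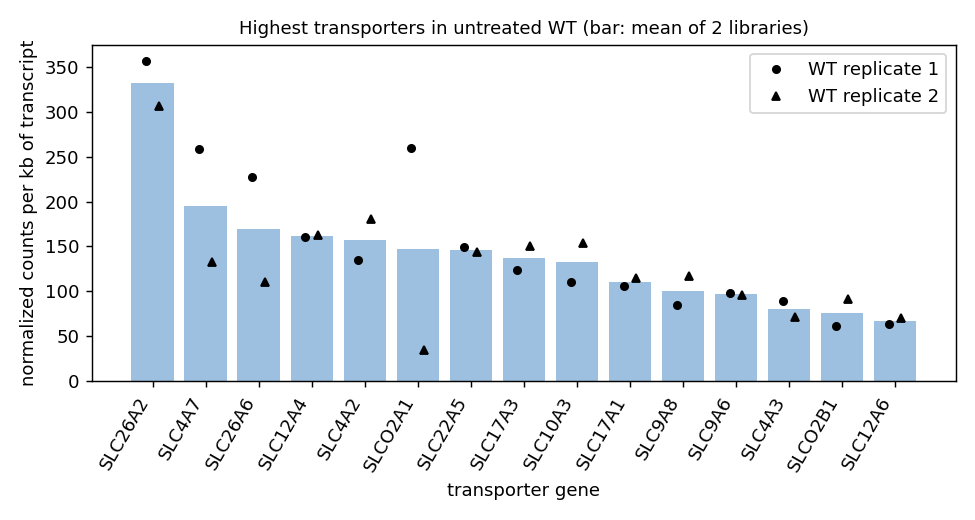
Normalized counts per kb of transcript (vertical axis) of the 15 highest transporter genes in untreated WT, with bars for the mean of 2 libraries and symbols for each library. SLC26A2 is highest, and the libraries of SLCO2A1 lie far apart.

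A difference was called at an adjusted p under 0.05 (limma, Benjamini-Hochberg over all 14585 tested genes) with an absolute log2 change over 1. Log2 changes are differences of log2(normalized count + 1), given with their standard error, and understate the change of low genes. In TGF-β-treated against untreated WT, 12 tested members were called (6 higher, 6 lower), 21.8% of the 55, where 7.84% of all tested genes were called (3.58% higher, 4.26% lower). In KO1 against WT there were 24 (15 higher, 9 lower), 43.6% against 25.0% of all genes (12% higher, 13.1% lower), and in KO2 against WT 18 (14 higher, 4 lower), 32.7% against 16.3% (9.02% higher, 7.29% lower). The median log2 change over tested members was -0.02 (TGF-β), 0.17 (KO1) and 0.39 (KO2), where the medians over all tested genes lay at 0.00 in each. The split depended on scaling, since with every library set to the same total the median of all genes moved by -0.39 (KO1) and -0.20 (KO2), while calls were then 14 higher and 13 lower in KO1 and 13 higher and 9 lower in KO2. Over all 13 comparisons 34 of the 55 tested members were called at least once and 21 never. In bulk RNA, fewer cells of a kind and less RNA per cell cannot be told apart.

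**Figure D2:**
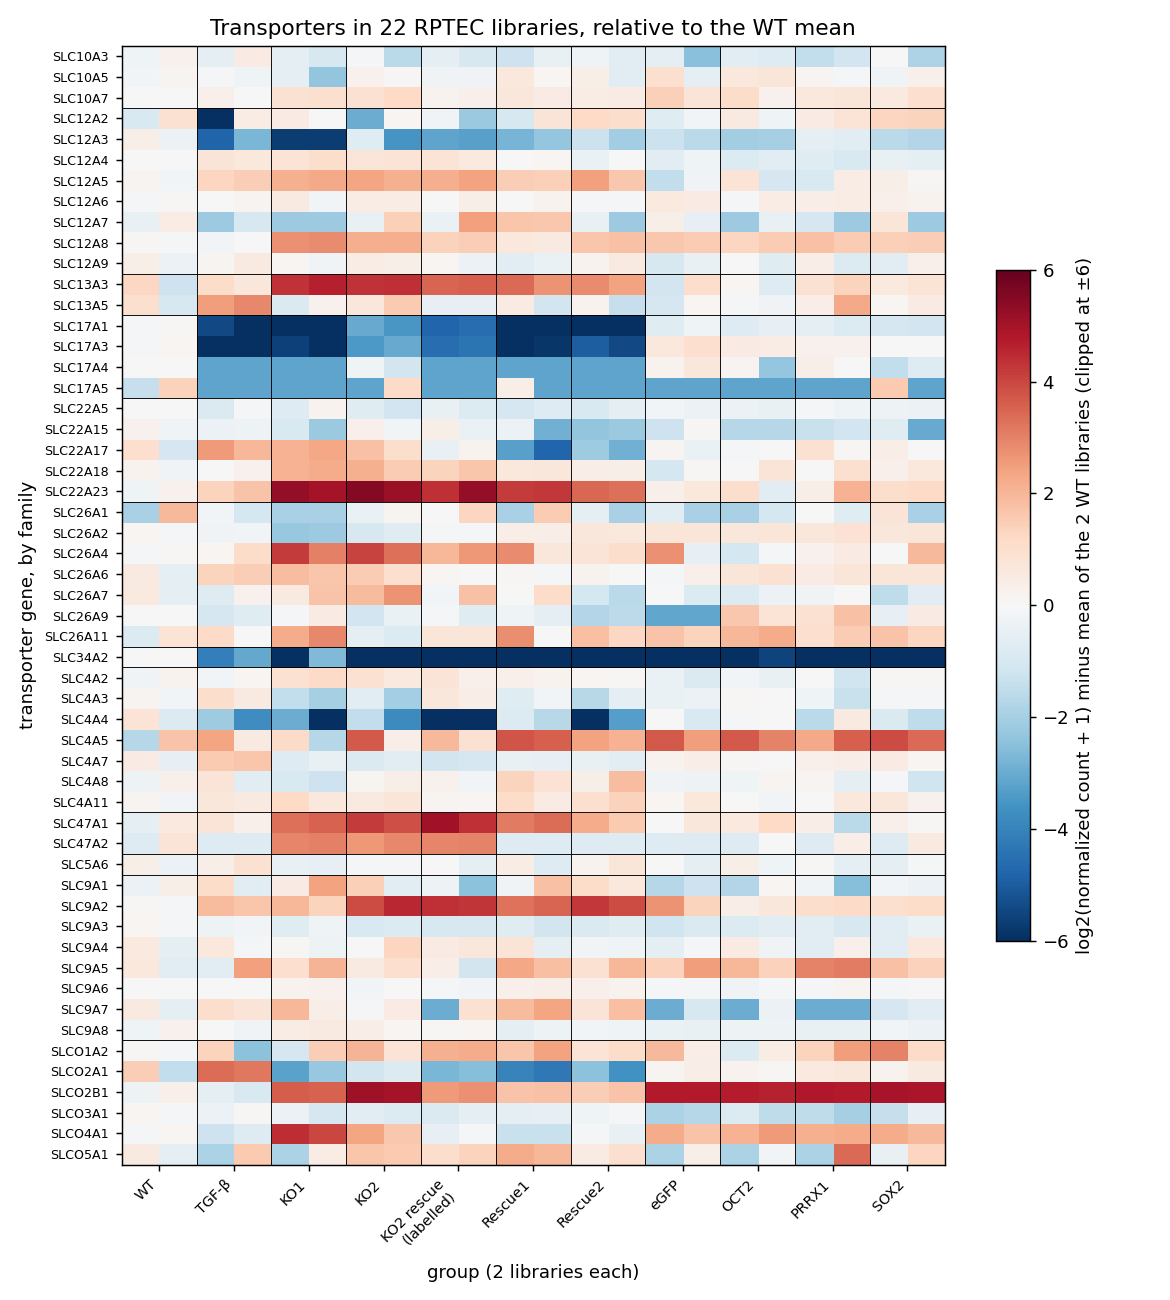
Tested transporters (54 rows, grouped by family) in each of the 22 libraries (columns, 2 per group), as log2(normalized count + 1) minus the mean of the WT libraries. Red marks levels above WT and blue below, and the SLC17A1 and SLC17A3 rows are blue from TGF-β to Rescue2 and near the WT level in the transduced pools.

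The urate and organic anion carriers SLC17A1, SLC17A3 and SLC17A4 fell together with TGF-β and in KO1, and SLC17A1 and SLC17A3 also in KO2. They are neighbours on chromosome 6 (GRCh38, GENCODE release 44, start of SLC17A4 at 25754699, with 1.72 kb between SLC17A4 and SLC17A1), and over the 22 libraries SLC17A1 followed SLC17A3 with a Pearson r of 0.954 and SLC17A4 with 0.874, a description over libraries that share groups. The 250 bases before a RefSeq start of each gene are shown from the RefSeq promoter table (GRCh38.p14) because these neighbours changed in the same direction, each written 5′ to 3′ on the strand of the gene. For SLC17A4 and SLC17A1 this start is the GENCODE gene start, but for SLC17A3 it lies 8043 bases inside the GENCODE gene (start at 25882286 on the minus strand), so that window is at an internal start. The HNF4 core CAAAGTCCA, the E-box CAGGTG and TATAAA were searched on both strands as exact matches and would be in capitals.
SLC17A4, chr6:25754449-25754698, plus strand: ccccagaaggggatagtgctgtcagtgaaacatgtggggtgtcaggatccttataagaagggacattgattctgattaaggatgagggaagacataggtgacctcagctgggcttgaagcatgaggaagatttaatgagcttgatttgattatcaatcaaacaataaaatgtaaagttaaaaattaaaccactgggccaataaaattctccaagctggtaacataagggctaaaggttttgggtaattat
SLC17A1, chr6:25832053-25832302, minus strand: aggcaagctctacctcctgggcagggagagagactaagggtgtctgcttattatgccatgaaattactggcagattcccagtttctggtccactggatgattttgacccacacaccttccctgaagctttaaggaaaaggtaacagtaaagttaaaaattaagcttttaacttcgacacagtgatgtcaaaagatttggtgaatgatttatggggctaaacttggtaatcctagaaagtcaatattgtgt
SLC17A3, chr6:25874244-25874493, minus strand: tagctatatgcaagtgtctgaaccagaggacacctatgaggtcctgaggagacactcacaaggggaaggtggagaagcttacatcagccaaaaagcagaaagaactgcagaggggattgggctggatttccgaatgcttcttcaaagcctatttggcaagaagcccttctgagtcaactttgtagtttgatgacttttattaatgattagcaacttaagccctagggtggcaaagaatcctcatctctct
None of these motifs is in any of the 3 windows. Over the 35116 RefSeq promoter windows of this length CAAAGTCCA was held by 0.325%, CAGGTG by 17.5% and TATAAA by 10.7%, and over the 78 members with a window by 2, 18 and 14 members. Some members have several windows and were counted if any of them matched, so these counts are not comparable with the shares of windows. A match or its absence is a description of the letters, not of a site.

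SLC17A1 was at 192 and 208 normalized counts in WT, 3.76 and 1.77 after TGF-β, 0 in both libraries of KO1 and 24.0 and 16.8 in KO2. The WT libraries lay above all of these, and KO2 kept more transcript than KO1. SLC17A1 fell with TGF-β (log2 change -5.79 ± 0.49, adjusted p = 1.4e-06) and in KO2 (log2 change -3.25 ± 0.49, adjusted p = 1.1e-04), and in KO1 lay below WT by a factor of at least 70.1 (adjusted p = 9.1e-09). SLC17A3 was at 254 and 309 in WT, 1.41 and 2.87 after TGF-β, 4.83 and 0 for KO1, with 24.8 and 33.5 for KO2. Here too KO2 lay between WT and KO1. SLC17A3 fell in KO1 (log2 change -6.86 ± 0.73, adjusted p = 2.7e-06) and in KO2 (log2 change -3.24 ± 0.73, adjusted p = 0.0034), and after TGF-β lay below WT by a factor of at least 86.6 (adjusted p = 2.1e-05). SLC17A4, a homologue at low levels (8.25 and 7.86 in WT), was at 0 in all 4 libraries of TGF-β and KO1, below WT by factors of at least 2.48 for TGF-β (adjusted p = 0.0061) and 2.82 for KO1 (adjusted p = 0.0025). In KO2 it stood at 6.51 and 3.28 and was not called (adjusted p = 0.55).

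The clones differed in each of these genes. KO1 was at least 7.14-fold below KO2 for SLC17A1 (adjusted p = 2.5e-05), lower for SLC17A3 (log2 change -3.63 ± 0.73, adjusted p = 0.0035) and at least 1.71-fold lower for SLC17A4 (adjusted p = 0.028). SLC17A3 (KO1 against KO2) stayed called but moved to -2.35 without KO1 replicate 2 on the log2 scale. SLC17A4 (KO1 against KO2) was not called without KO1 replicate 1 (log2 change -2.50), KO1 replicate 2 (log2 change -2.50), KO2 replicate 1 (log2 change -2.10) or KO2 replicate 2 (log2 change -2.91). SLC17A5, the lysosomal sialic acid carrier, was above 0 in 5 libraries and was called in no comparison.

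SLC17A1, SLC17A3 and SLC17A4 were not called higher in the clones with re-expressed SETD2 than in the knockouts. SLC17A1 was at 0 in both libraries of Rescue1 and at 0 and 1.17 normalized counts in Rescue2, SLC17A3 at 0 and 3.88 in Rescue1 and 8.14 and 5.55 in Rescue2, and SLC17A4 at 0 throughout. All of these libraries lay below KO2, while KO1 was itself at or near 0. Against the mean of both knockouts SLC17A1 was at least 3.00-fold lower (adjusted p = 3.2e-04) and SLC17A3 was not called (log2 change -1.04 ± 0.52, adjusted p = 0.12). In the eGFP pool, the vector control in the same serum, SLC17A1 stood at 121 and 166 and SLC17A3 at 431 and 558. Relative to eGFP the rescue clones were at least 42.2-fold lower for SLC17A1 (adjusted p = 1.8e-08) and lower for SLC17A3 (log2 change -6.89 ± 0.63, adjusted p = 1.3e-06). The group labelled KO2 rescue held 6.32 and 7.58 of SLC17A1 and 11.0 and 12.6 of SLC17A3, below KO2, and neither was called, whereas SLC17A4, at 0 in both of its libraries, was (adjusted p = 0.038). SLC17A4 (labelled KO2 rescue against KO2) was not called without KO2 replicate 1 (log2 change -2.10), KO2 replicate 2 (log2 change -2.91), labelled KO2 rescue replicate 1 (log2 change -2.50) or labelled KO2 rescue replicate 2 (log2 change -2.50).

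SLC34A2, a sodium phosphate cotransporter best known from intestine and lung, differed from the SLC17 genes in the vector control. It was at 101 and 96.9 normalized counts in WT, 4.87 and 10.9 after TGF-β, 0 and 14.9 in KO1 and 0 in both KO2 libraries. It was likewise at 0 in every rescue and eGFP library, so the vector control in 10% serum stood with KO2 and not with WT. It lay below WT by factors of at least 28.9 in KO2 (adjusted p = 6.9e-05) and 31.3 in eGFP (adjusted p = 1.0e-04). SLC34A2 also fell with TGF-β (log2 change -3.58 ± 0.94, adjusted p = 0.016) and in KO1 (log2 change -4.65 ± 0.94, adjusted p = 0.0011). SLC34A2 (TGF-β against WT) was not called without WT replicate 1 (log2 change -3.55), WT replicate 2 (log2 change -3.61) or TGF-β replicate 1 (log2 change -3.07). SLC34A2 (KO1 against WT) stayed called but moved to -2.65 without KO1 replicate 1 on the log2 scale.

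**Figure D3:**
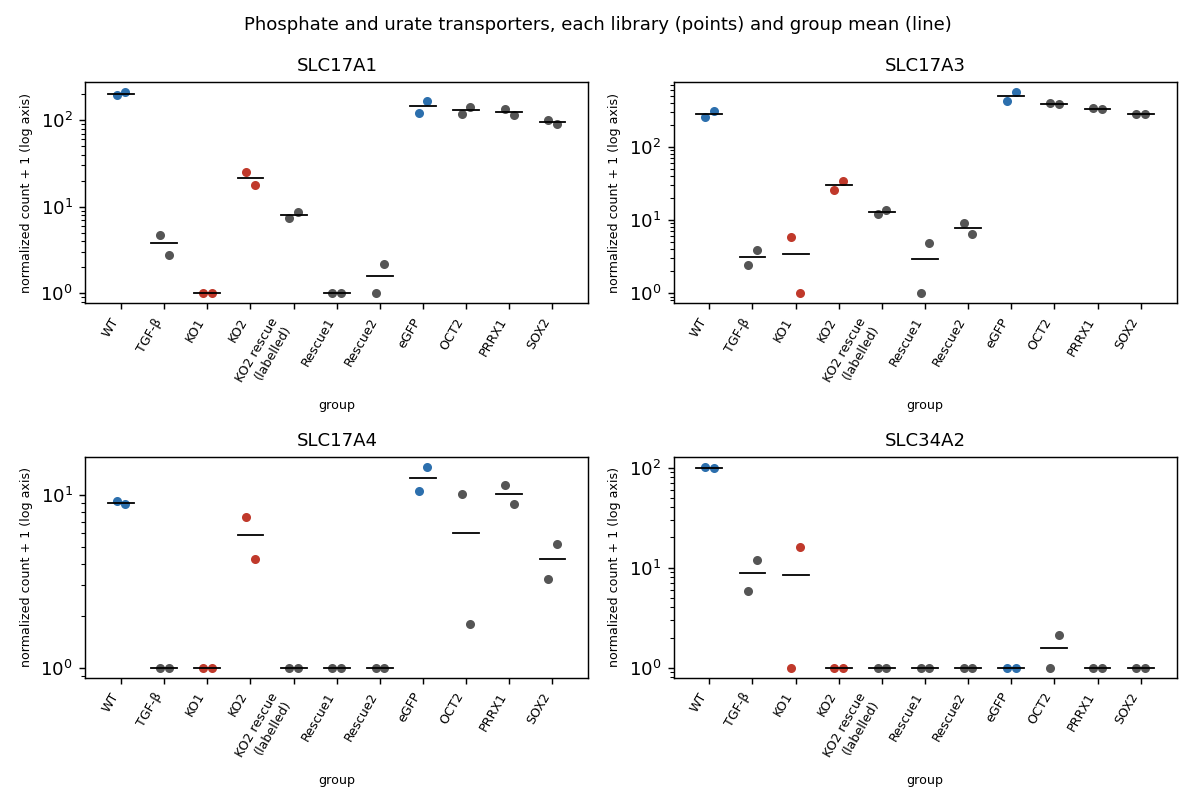
Normalized count plus 1 on a log axis for SLC17A1, SLC17A3, SLC17A4 and SLC34A2 in each library of the 11 groups (points, red for the knockouts and blue for WT and eGFP) with group means (lines). SLC17A1 and SLC17A3 are low in TGF-β, knockout and rescue groups and near WT in the transduced pools, where SLC34A2 is at or near 0.

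Among the organic anion carriers, SLCO2B1 and SLCO4A1 rose in both knockout clones, SLCO2B1 by more in KO2 and SLCO4A1 by more in KO1. SLCO2B1 was at 266 and 399 normalized counts in WT, 228 and 172 after TGF-β, 4115 and 3749 for KO1, with 10986 and 10449 for KO2. Both clones lay far above WT, KO1 (log2 change 3.59 ± 0.16, adjusted p = 1.3e-10) and KO2 (log2 change 5.04 ± 0.16, adjusted p = 5.1e-12), and TGF-β was not called. The eGFP pool, however, stood at 8839 and 8709 and the 3 other pools between 8126 and 10002, between the knockout clones, and eGFP was called above WT (log2 change 4.75 ± 0.16, adjusted p = 3.0e-11). It was at 1084 and 1106 in Rescue1 and 898 and 1065 in Rescue2. These lay below the knockouts (log2 change -2.65 ± 0.11, adjusted p = 6.8e-11) and below the eGFP pool (log2 change -3.08 ± 0.13, adjusted p = 4.3e-10), and above WT.

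SLCO4A1, a thyroid hormone carrier, stood at 101 and 119.7 normalized counts in WT, 2376 and 1787 in KO1, 563 and 341 in KO2 and 524 and 365 in eGFP. KO1 (log2 change 4.22 ± 0.27, adjusted p = 1.2e-08), KO2 (log2 change 1.99 ± 0.27, adjusted p = 5.5e-05) and eGFP (log2 change 1.98 ± 0.27, adjusted p = 8.0e-05) were all above WT, and KO1 exceeded KO2 (log2 change 2.23 ± 0.27, adjusted p = 6.2e-05). The rescue clones, at 42.9 and 42.5 in Rescue1 and 105 and 80.8 in Rescue2, were below the knockouts (log2 change -3.90 ± 0.19, adjusted p = 5.1e-10) and below eGFP (log2 change -2.78 ± 0.24, adjusted p = 6.4e-07). After TGF-β it fell to 46.6 and 62.8 (log2 change -1.01 ± 0.27, adjusted p = 0.019). SLCO4A1 (TGF-β against WT) was not called without WT replicate 2 (log2 change -0.89) or TGF-β replicate 1 (log2 change -0.80).

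SLCO2A1, the prostaglandin transporter, rose with TGF-β and fell in KO1. It reached 3858 and 3382 normalized counts after TGF-β against 1058 and 138 in WT, where the libraries were far apart. KO1 held 39.8 and 78.9 and KO2 176 and 215, and KO2 lay between the WT libraries. TGF-β (log2 change 3.24 ± 0.64, adjusted p = 0.0025) and KO1 (log2 change -2.75 ± 0.64, adjusted p = 0.0032) were called and KO2 was not (log2 change -0.97 ± 0.64, adjusted p = 0.3). SLCO2A1 (TGF-β against WT) stayed called but moved to 1.77 without WT replicate 2 on the log2 scale. SLCO2A1 (KO1 against WT) stayed called but moved to -1.28 without WT replicate 1 or -4.21 without WT replicate 2 on the log2 scale. The rescue clones, at 23.1 and 18.6 in Rescue1 and 67.7 and 29.8 in Rescue2, were below the knockouts (log2 change -1.74 ± 0.45, adjusted p = 0.0057) and below eGFP (log2 change -3.88 ± 0.56, adjusted p = 9.1e-05).

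**Figure D4:**
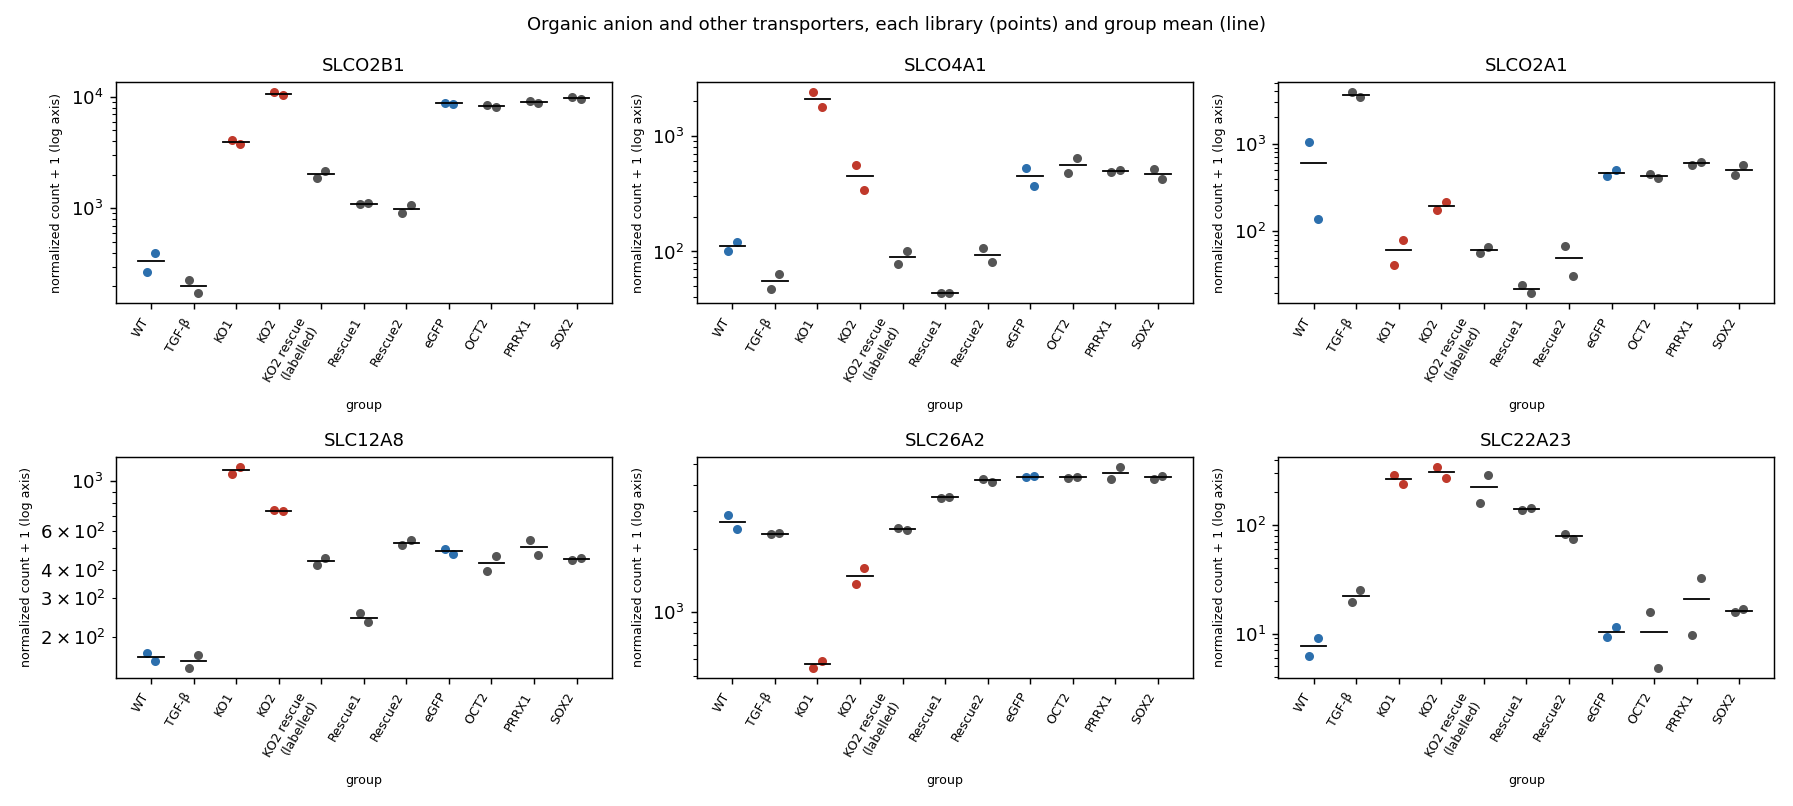
Normalized count plus 1 on a log axis for SLCO2B1, SLCO4A1, SLCO2A1, SLC12A8, SLC26A2 and SLC22A23 in each library of the 11 groups (points, red for the knockouts and blue for WT and eGFP) with group means (lines). SLCO2B1 is high in the knockouts and in the 4 transduced pools, whereas SLC22A23 is high in the knockouts and not in the pools.

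Several organic ion and dicarboxylate carriers rose in both knockout clones and were not called in the eGFP pool. SLC22A23, a member of the organic ion family without an established substrate, was at 5.27 and 8.12 normalized counts in WT, 290.4 and 238 in KO1, 344 and 273 in KO2 and 8.29 and 10.6 in eGFP. It rose in KO1 (log2 change 5.12 ± 0.58, adjusted p = 5.2e-06) and in KO2 (log2 change 5.34 ± 0.58, adjusted p = 5.6e-06). SLC13A3, the basolateral dicarboxylate carrier, stood at 20.6 and 2.99 in WT, 187 and 233 in KO1, 186 and 189 in KO2 and 3.13 and 18.6 in eGFP. The clones overlapped with each other and not with WT in either gene. SLC13A3 rose in KO1 (log2 change 4.50 ± 0.75, adjusted p = 1.9e-04) and in KO2 (log2 change 4.35 ± 0.75, adjusted p = 3.8e-04).

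In the rescue clones both genes were lower than in the knockouts and higher than in eGFP. SLC22A23 stood at 136 and 143 normalized counts in Rescue1 and 82.4 and 73.7 in Rescue2, below the knockouts (log2 change -1.44 ± 0.41, adjusted p = 0.01) and above eGFP (log2 change 3.35 ± 0.51, adjusted p = 1.5e-04). SLC13A3 stood at 97.2 and 58.3 in Rescue1 and 66.0 and 48.5 in Rescue2, below the knockouts (log2 change -1.59 ± 0.53, adjusted p = 0.023) and above eGFP (log2 change 2.88 ± 0.65, adjusted p = 0.0034). SLC13A3 (Rescue against KO) was not called without KO1 replicate 2 (log2 change -1.51), KO2 replicate 1 (log2 change -1.59), KO2 replicate 2 (log2 change -1.58), Rescue1 replicate 2 (log2 change -1.41) or Rescue2 replicate 2 (log2 change -1.48). SLC13A3 (Rescue against eGFP) was not called without eGFP replicate 1 (log2 change 1.76). Against KO2 alone the call for SLC13A3 was lost. SLC13A5, the citrate carrier, rose with TGF-β from 10.1 and 1.89 to 31.5 and 41.4 (log2 change 2.71 ± 0.87, adjusted p = 0.044). SLC13A5 (TGF-β against WT) was not called without WT replicate 2 (log2 change 1.74), TGF-β replicate 1 (log2 change 2.90) or TGF-β replicate 2 (log2 change 2.52).

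The organic cation extruders SLC47A1 and SLC47A2, which export drugs such as metformin in the proximal tubule, also rose in both clones. SLC47A1 was at 1.06 and 3.56 normalized counts in WT, 28.8 and 34.2 in KO1 and 54.7 and 43.5 in KO2. It rose in KO1 (log2 change 3.40 ± 0.67, adjusted p = 8.6e-04) and in KO2 (log2 change 4.02 ± 0.67, adjusted p = 3.0e-04). SLC47A2 was at 11.9 and 12.7 in KO1 and 9.38 and 11.5 in KO2, at least 4.62-fold (adjusted p = 0.0026) and at least 3.91-fold (adjusted p = 0.0061) above WT. The 2 genes parted in the rescue clones. SLC47A2 was at 0 in all 4 rescue libraries, at least 3.35-fold below the knockouts (adjusted p = 1.9e-05). SLC47A1, at 25.5 and 30.6 in Rescue1 and 13.3 and 8.13 in Rescue2, was not called against the knockouts (log2 change -1.14 ± 0.47, adjusted p = 0.063) and was above eGFP (log2 change 2.23 ± 0.58, adjusted p = 0.0091). SLC47A2 (KO2 against WT) was not called without WT replicate 1 (log2 change 2.00). SLC47A1 (Rescue against eGFP) was not called without eGFP replicate 1 (log2 change 1.90).

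SLC22A17, a receptor for lipocalin 2, rose with TGF-β and in KO1 and was close to 0 in the rescue clones. It was at 52.8 and 12.6 normalized counts in WT, 160.0 and 106 after TGF-β, 114 and 136 for KO1, with 89.6 and 55.6 for KO2. TGF-β (log2 change 2.28 ± 0.66, adjusted p = 0.027) and KO1 (log2 change 2.21 ± 0.66, adjusted p = 0.015) were called and KO2 was not (log2 change 1.40 ± 0.66, adjusted p = 0.14). SLC22A17 (TGF-β against WT) was not called without WT replicate 2 (log2 change 1.29), TGF-β replicate 1 (log2 change 1.98) or TGF-β replicate 2 (log2 change 2.57). SLC22A17 (KO1 against WT) was not called without WT replicate 2 (log2 change 1.22) or KO1 replicate 2 (log2 change 2.09). Rescue1 held 1.80 and 0 and Rescue2 5.26 and 2.71, below every other library, and the rescue clones were lower than the knockouts (log2 change -5.06 ± 0.47, adjusted p = 4.5e-07) and than eGFP (log2 change -3.13 ± 0.57, adjusted p = 7.4e-04).

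SLC22A18, which overlaps an antisense gene whose reads may not have been separated, rose from 44.9 and 32.3 normalized counts in WT to 166 and 182 in KO1 (log2 change 2.16 ± 0.43, adjusted p = 9.4e-04) and 172 and 113 in KO2 (log2 change 1.84 ± 0.43, adjusted p = 0.0042). SLC22A18 (KO2 against WT) was not called without KO2 replicate 1 (log2 change 1.54). The carnitine carrier SLC22A5 was called in no comparison, with 276 and 552 in KO1 (log2 change -0.29 ± 0.29, adjusted p = 0.45) against 487 and 471 in WT.

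Anion exchangers moved in both directions. SLC26A2, the sulphate carrier, was at 2877 and 2472 normalized counts in WT, 546 and 585 in KO1 and 1359 and 1622 in KO2. It fell in KO1 (log2 change -2.24 ± 0.09, adjusted p = 5.2e-11), while KO2 stayed under the fold threshold (log2 change -0.84 ± 0.09, adjusted p = 4.0e-06), and KO1 was below KO2 (log2 change -1.39 ± 0.09, adjusted p = 1.2e-07). Rescue1 stood at 3487 and 3520.5 and Rescue2 at 4276 and 4126, above the knockouts (log2 change 2.06 ± 0.06, adjusted p = 2.1e-12), and the eGFP pool was at 4350.3 and 4395. SLC26A6, an exchanger of chloride, oxalate and bicarbonate, was at 594 and 288 in WT, 1055 and 1147 after TGF-β, 1499 and 1327 for KO1, with 1176 and 838 for KO2. It rose with TGF-β (log2 change 1.41 ± 0.26, adjusted p = 0.0013), in KO1 (log2 change 1.77 ± 0.26, adjusted p = 5.6e-05) and in KO2 (log2 change 1.26 ± 0.26, adjusted p = 0.0015). In the rescue clones it was below the knockouts (log2 change -1.46 ± 0.18, adjusted p = 1.0e-05). SLC26A6 (TGF-β against WT) was not called without WT replicate 2 (log2 change 0.89). SLC26A6 (KO2 against WT) was not called without WT replicate 2 (log2 change 0.74).

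SLC26A4 (pendrin), a chloride bicarbonate exchanger of the collecting duct, was low in WT at 2.99 and 3.49 normalized counts and reached 77.5 and 33.4 in KO1 and 69.4 and 41.4 in KO2. It rose in KO1 (log2 change 3.62 ± 0.99, adjusted p = 0.0093) and in KO2 (log2 change 3.69 ± 0.99, adjusted p = 0.011). Rescue1 held 29.1 and 5.79 and Rescue2 6.14 and 7.86, below the knockouts (log2 change -2.32 ± 0.70, adjusted p = 0.014). SLC26A4 (KO1 against WT) was not called without KO1 replicate 1 (log2 change 3.02). SLC26A4 (KO2 against WT) was not called without WT replicate 1 (log2 change 3.60) or KO2 replicate 1 (log2 change 3.33). SLC26A4 (Rescue against KO) was not called without Rescue1 replicate 2 (log2 change -1.78). SLC26A7, a chloride carrier, was below the knockouts in the rescue clones as well (log2 change -2.12 ± 0.54, adjusted p = 0.0051), at means of 6.26 and 26.8 normalized counts. SLC26A11 separated the clones, with 59.7 and 94.9 in KO1 and 7.72 and 6.42 in KO2 (log2 change 3.25 ± 0.75, adjusted p = 0.0089). SLC26A11 (KO1 against KO2) was not called without KO1 replicate 2 (log2 change 2.92) or KO2 replicate 2 (log2 change 3.13).

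Of the bicarbonate transporters, SLC4A7 rose with TGF-β and was called in neither clone. It was at 4396 and 4726 normalized counts after TGF-β, against 2087 and 1067 in WT, 862 and 1111 in KO1 and 818 and 924 in KO2. TGF-β was called (log2 change 1.61 ± 0.22, adjusted p = 1.4e-04), and KO1 (log2 change -0.61 ± 0.22, adjusted p = 0.043) and KO2 (log2 change -0.78 ± 0.22, adjusted p = 0.016) were under the fold threshold. SLC4A4, the basolateral sodium bicarbonate cotransporter of the proximal tubule, fell from 115 and 36.7 in WT to 7.38 and 0 in KO1 (log2 change -4.51 ± 1.16, adjusted p = 0.0062). SLC4A4 (KO1 against WT) was not called without WT replicate 1 (log2 change -3.70) or KO1 replicate 2 (log2 change -2.98). The anion exchanger SLC4A3 fell from 367 and 296 in WT to 117 and 81.7 in KO1 (log2 change -1.74 ± 0.45, adjusted p = 0.0065) and 208 and 78.2 in KO2 (log2 change -1.36 ± 0.45, adjusted p = 0.035). SLC4A3 (KO1 against WT) was not called without KO1 replicate 2 (log2 change -1.49). SLC4A3 (KO2 against WT) was not called without WT replicate 1 (log2 change -1.21), WT replicate 2 (log2 change -1.52) or KO2 replicate 2 (log2 change -0.66). SLC4A3 (KO2 against WT) stayed called but moved to -2.06 without KO2 replicate 1 on the log2 scale. The anion exchanger SLC4A2 rose in KO1 to 1226 and 1427 from 553 and 744 (log2 change 1.04 ± 0.29, adjusted p = 0.0098). SLC4A2 (KO1 against WT) was not called without WT replicate 1 (log2 change 0.83) or KO1 replicate 2 (log2 change 0.93). Neither SLC4A4 nor SLC4A2 was called against WT in KO2 or with TGF-β.

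Among the SLC12 genes, SLC12A8, a carrier that differs from the chloride cotransporters in its reported substrates, rose in both clones and in the eGFP pool. It stood at 169 and 156 normalized counts in WT, 1081 and 1163 in KO1, 744 and 733 in KO2 and 494 and 473 in eGFP. KO1 (log2 change 2.78 ± 0.12, adjusted p = 1.6e-10), KO2 (log2 change 2.18 ± 0.12, adjusted p = 5.0e-09) and eGFP (log2 change 1.57 ± 0.12, adjusted p = 3.5e-07) were all called. The rescue clones differed from each other, with 256 and 232 in Rescue1 and 517 and 543 in Rescue2 (log2 change -1.12 ± 0.12, adjusted p = 1.0e-04). SLC12A5, best known from neurons, rose to 58.0 and 63.2 in KO1 (log2 change 2.20 ± 0.62, adjusted p = 0.011) and 67.5 and 58.2 in KO2 (log2 change 2.25 ± 0.62, adjusted p = 0.013) from 13.8 and 11.1 in WT. SLC12A5 (KO1 against WT) was not called without WT replicate 2 (log2 change 2.06). SLC12A5 (KO2 against WT) was not called without WT replicate 2 (log2 change 2.10) or KO2 replicate 1 (log2 change 2.15).

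SLC12A3, the thiazide-sensitive cotransporter of the distal tubule, was at 64.9 and 38.9 normalized counts in WT, 0.854 and 6.70 after TGF-β, 29.7 and 3.37 in KO2 and 0 in both KO1 libraries. It fell with TGF-β (log2 change -3.76 ± 0.81, adjusted p = 0.0045), was at least 18.2-fold lower in KO1 (adjusted p = 4.9e-05), and was not called in KO2 (log2 change -2.15 ± 0.81, adjusted p = 0.062). SLC12A3 (TGF-β against WT) was not called without TGF-β replicate 1 (log2 change -2.74). KO1 was at least 5.80-fold below KO2 (adjusted p = 0.0083). SLC12A3 (KO1 against KO2) was not called without KO2 replicate 1 (log2 change -2.13). The rescue clones were above the mean of the knockouts (log2 change 1.80 ± 0.57, adjusted p = 0.019), a call that rested on KO1 and was lost against KO2 alone. SLC12A3 (Rescue against KO) was not called without KO2 replicate 2 (log2 change 1.09), Rescue1 replicate 2 (log2 change 1.68) or Rescue2 replicate 1 (log2 change 1.60). SLC12A2, the chloride cotransporter of secretory epithelia, and SLC26A1, a sulphate carrier, were called in no comparison.

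Of the 8 tested sodium proton exchangers, SLC9A2 was the one called against WT with TGF-β and in either clone. It was at 2.91 and 2.45 normalized counts in WT, 12.8 and 10.5 after TGF-β, 13.5 and 8.14 for KO1, with 53.9 and 82.8 for KO2. It rose in KO2 (log2 change 4.21 ± 0.51, adjusted p = 1.5e-05), in KO1 (log2 change 1.65 ± 0.51, adjusted p = 0.018) and with TGF-β (log2 change 1.77 ± 0.51, adjusted p = 0.024), and KO1 was below KO2 (log2 change -2.56 ± 0.51, adjusted p = 0.003). SLC9A2 (TGF-β against WT) was not called without WT replicate 1 (log2 change 1.86), WT replicate 2 (log2 change 1.68), TGF-β replicate 1 (log2 change 1.64) or TGF-β replicate 2 (log2 change 1.91). SLC9A2 (KO1 against WT) was not called without WT replicate 2 (log2 change 1.56) or KO1 replicate 1 (log2 change 1.31). SLC9A3, the brush border exchanger, was at 242 and 208 in WT, 136 and 186 in KO1 and 119 and 125 in KO2, and was called in neither KO1 (log2 change -0.49 ± 0.23, adjusted p = 0.097) nor KO2 (log2 change -0.87 ± 0.23, adjusted p = 0.0085). SLC9A7, an exchanger of the Golgi, was higher in the rescue clones than in eGFP (log2 change 3.65 ± 0.99, adjusted p = 0.012). SLC9A7 (Rescue against eGFP) was not called without eGFP replicate 1 (log2 change 2.65). The single tested SLC5 member, the vitamin carrier SLC5A6, was called in no comparison, and of the 3 tested SLC10 members SLC10A7 was called in KO2 (log2 change 1.06 ± 0.28, adjusted p = 0.0092). SLC10A7 (KO2 against WT) was not called without KO2 replicate 2 (log2 change 0.90).

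Set directly against TGF-β, the mean of the knockout clones differed in 15 tested members (10 higher, 5 lower), 27.3% against 20.2% of all tested genes (10.3% higher, 9.83% lower). SLCO2B1 (log2 change 5.03 ± 0.13, adjusted p = 5.9e-13), SLCO4A1 (log2 change 4.11 ± 0.24, adjusted p = 3.3e-09) and SLC22A23 (log2 change 3.69 ± 0.51, adjusted p = 3.5e-05) were higher in the knockouts, and SLC47A2 was at least 3.50-fold higher (adjusted p = 1.7e-04). SLCO2A1 (log2 change -5.10 ± 0.56, adjusted p = 3.7e-06), SLC4A3 (log2 change -2.36 ± 0.39, adjusted p = 2.2e-04) and SLC4A7 (log2 change -2.30 ± 0.19, adjusted p = 2.3e-07) were lower. SLC26A6, called against WT in both settings, was not called between them (log2 change 0.11 ± 0.22, adjusted p = 0.76), with a 95% interval -0.37 to 0.58. SLC17A3 (log2 change 1.47 ± 0.63, adjusted p = 0.086) and SLC34A2 (log2 change -2.06 ± 0.82, adjusted p = 0.062) were not called either, but their intervals reached far past the fold threshold (95% interval 0.11 to 2.83 for SLC17A3 and 95% interval -3.81 to -0.32 for SLC34A2). For SLC17A3 both TGF-β libraries were at their floor (1.41 and 2.87 normalized counts), so its fitted value and interval depend on the pseudocount. Its knockout mean also joins unlike clones, KO1 at 4.83 and 0 and KO2 at 24.8 and 33.5.

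**Figure D5:**
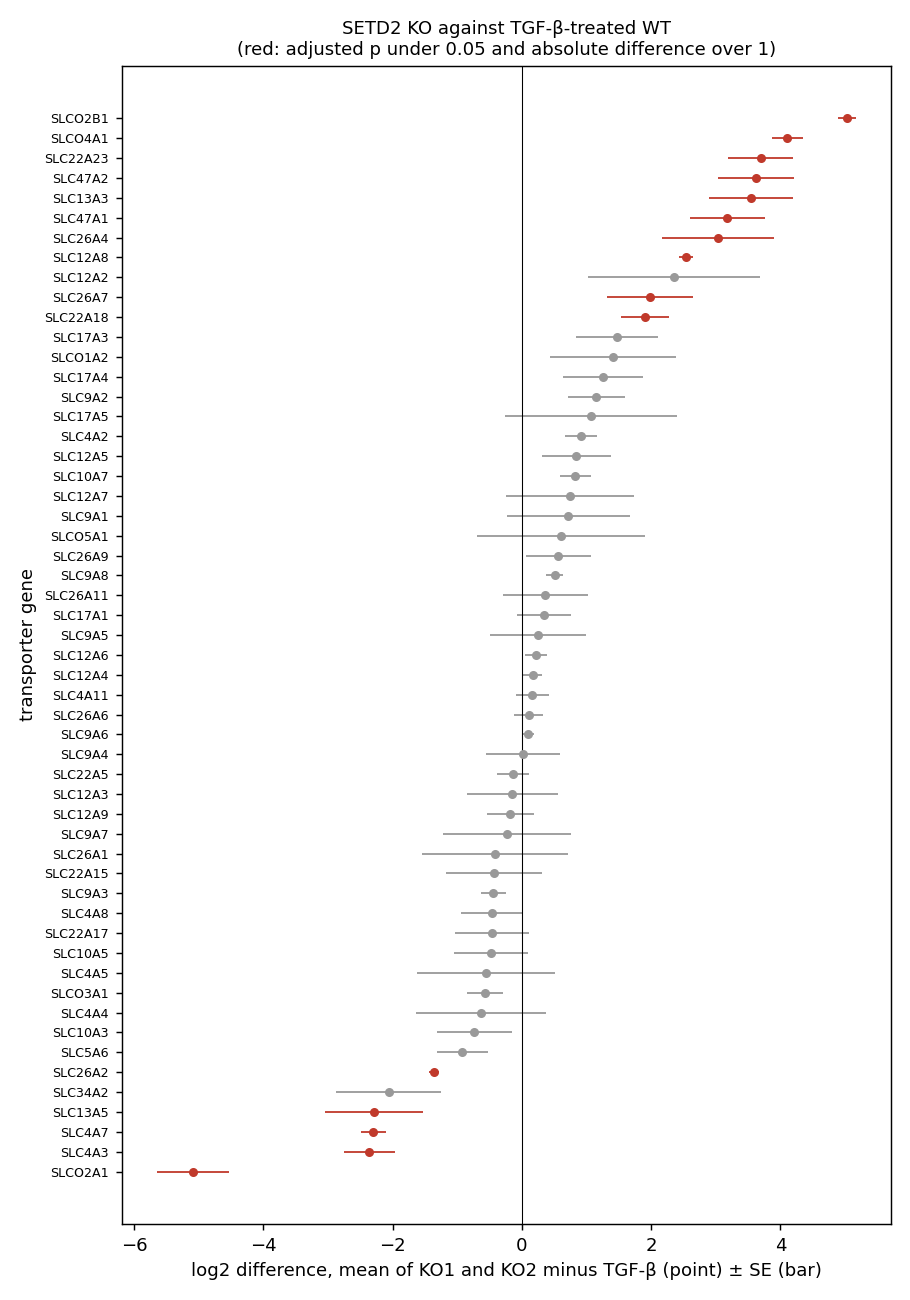
Log2 difference between the mean of KO1 and KO2 and TGF-β-treated WT (horizontal axis) for 54 tested transporters, with the standard error as a bar and calls in red. SLCO2B1 lies at one end at 5.03 and SLCO2A1 at the other at -5.10.

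Between the clones, 9 tested members differed (2 higher and 7 lower in KO1), 16.4% against 6.97% of all genes (2.48% higher, 4.49% lower). With SETD2 re-expressed, 17 tested members differed from the knockouts (3 higher, 14 lower), 30.9% against 23.3% of all genes (11.3% higher, 11.9% lower), and 17 differed from eGFP (10 higher, 7 lower), 30.9% against 13.1% (6.47% higher, 6.66% lower). With every library at the same total the first split was 6 higher and 12 lower. Serum differs in the former comparison and not in the latter. In the group labelled KO2 rescue, 5 members differed from KO2, 9.09% against 4.17%, with SLCO2B1, at 1890.2 and 2156 normalized counts, lower (log2 change -2.41 ± 0.16, adjusted p = 8.7e-08) and SLCO4A1, at 77.6 and 99.8, lower (log2 change -2.30 ± 0.27, adjusted p = 5.4e-05), although SETD2 there was below KO2. SLC4A3, at 537 and 434, was higher (log2 change 1.91 ± 0.45, adjusted p = 0.014). SLC4A3 (labelled KO2 rescue against KO2) was not called without KO2 replicate 2 (log2 change 1.21), labelled KO2 rescue replicate 1 (log2 change 1.76) or labelled KO2 rescue replicate 2 (log2 change 2.06). Rescue1 and Rescue2 differed from each other in 1 member, SLC12A8, where 0.994% of all genes were called.

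The eGFP pool differed from WT in 9 tested members (5 higher, 4 lower), 16.4% against 12.7% of all genes (6.49% higher, 6.24% lower), with SLCO2B1, SLCO4A1, SLC12A8, SLC9A2 and SLC10A7 higher and SLC34A2, SLC26A9, SLCO3A1 and SLC9A3 lower. SLCO3A1, an organic anion carrier, was at 66.5 and 74.0 normalized counts in eGFP and 270.3 and 227 in WT (log2 change -1.81 ± 0.32, adjusted p = 7.3e-04). SLC9A3 was at 96.1 and 124 there (log2 change -1.03 ± 0.23, adjusted p = 0.0032). SLC9A3 (eGFP against WT) was not called without WT replicate 1 (log2 change -0.92) or eGFP replicate 1 (log2 change -0.85). SLC9A2 (eGFP against WT) was not called without eGFP replicate 1 (log2 change 1.32). SLC10A7 (eGFP against WT) was not called without eGFP replicate 1 (log2 change 0.77). Against eGFP, the SOX2 pool had 0 called members (limma, 7 of 55 at an unadjusted p under 0.05) where 0.0206% of all genes were called. The OCT2 pool (0.0343% of all genes) and the PRRX1 pool (0.0411%) each had 1, the chloride carrier SLC26A9. It was at 25.6 and 14.5 normalized counts in OCT2, 15.7 and 28.8 in PRRX1, and 5.15 and 11.2 in SOX2. SLC26A9 was above 0 in 20 of the 22 libraries, and the eGFP libraries were the only ones at 0. Both calls are therefore measured against a control that was itself called below WT for this gene. SLC26A9 (OCT2 against eGFP) was not called without eGFP replicate 1 (log2 change 4.34), OCT2 replicate 1 (log2 change 3.96) or OCT2 replicate 2 (log2 change 4.73). SLC26A9 (PRRX1 against eGFP) was not called without eGFP replicate 1 (log2 change 4.48) or PRRX1 replicate 2 (log2 change 4.07).

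The scaffolds, pumps, hormone receptors and regulators that act with these carriers were looked up from a separate list of 35 genes, 29 of them tested. With TGF-β 2 of the 29 rose and 5 fell, where 7.84% of all tested genes were called. In KO1 7 rose and 9 fell (25.0% of all genes called), and in KO2 4 rose and 10 fell (16.3%). PDZK1, a scaffold that holds SLC17A1, SLC34 and SLC22 carriers at the brush border, was at 3256 and 3181 normalized counts in WT, 412 and 423 after TGF-β, 36.7 and 42.6 for KO1, with 329.8 and 389 for KO2, and was called in all of these. It was at 1719 and 1507 in eGFP and 76.3 and 26.7 in Rescue1. PTH1R, the parathyroid hormone receptor that controls phosphate uptake, was at 409.7 and 532 in WT, 98.7 and 109 after TGF-β and at most 2.45 in the knockout libraries, and at 13.7 and 12.1 in eGFP. The part of these genes in the changes of the carriers was not tested. Carbonic anhydrase CA12, also on this list, stood at 18.9 and 9.06 in WT, 8084 and 8348 in KO1, 814 and 569 in KO2 and 255 and 256 in eGFP.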

How the data were processed

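RNA from 22 RPTEC libraries, in 11 groups of 2, was prepared with a stranded mRNA kit and sequenced on a NovaSeq. Per the submitters' processing notes and the study's methods, the authors quantified reads with Salmon 1.9.0 on the Ensembl 94 cDNA of GRCh38 and normalized them with DESeq2 1.26.0; the strand setting is not given in the sources used here. The deposited values, for 36859 genes, lie on a log2 scale and share a floor of 11.3 in every library. Their transformation is not stated in the sources used here; from the values they were read as variance-stabilized, and the transformation that this floor fixes was inverted to normalized counts (counts divided by size factors).

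Groups came from the sample labels. The 14585 genes that reached 10 normalized counts in 2 or more libraries were tested on log2(normalized count + 1) with limma 3.58.1 (R 4.3.3), fitting 1 mean per group over all 22 libraries with a mean-variance trend, and p-values were adjusted by Benjamini-Hochberg over all tested genes. The test was checked on simulated data for KO1 against WT, in which 193 of 200 genes changed by a log2 of 2 were recovered among 14117 genes, with 2 false calls. The changes were planted only in genes above a set mean level, and every library had the same assumed spread. Recovery in low genes, or with duplicates as far apart as those of WT, was therefore not checked. A group was at its floor when each library held at most 3 reads' worth of normalized counts, and such folds are given as bounds. Approximate depth was 7500000 to 18600000 reads. Promoter windows and motifs came from RefSeq (GRCh38.p14), gene types and positions from GENCODE release 44.

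The members, gene lists and motifs were chosen with earlier results of these data known. Values are given for the members with the largest called changes in each comparison, the 10 highest on average and a list of nephron segment carriers. The comparison of rescue clones with KO2 alone was added after seeing the data. Of the tested members, 1 is counted but its values are not reported here. Alternatives are listed with their effect at the end.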

Additional observations from a re-analysis of the deposited data

Results flagged for a closer look

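Members whose level differed between clones of the same kind are listed here, by the test of the difference itself (limma, adjusted over all tested genes). For 3 genes both KO1 libraries were at 0, so the difference is a bound and the fitted value depends on the pseudocount. KO1 was below KO2 by a factor of at least 7.14 for SLC17A1 (fitted log2 difference -4.40, adjusted p = 2.5e-05), 5.80 for SLC12A3 (fitted -3.53, adjusted p = 0.0083) and 1.71 for SLC17A4 (fitted -2.50, adjusted p = 0.028). It was also below KO2 for SLC17A3 (log2 difference -3.63, adjusted p = 0.0035), SLC9A2 (-2.56, adjusted p = 0.003), SLCO2B1 (-1.45, adjusted p = 1.9e-05) and SLC26A2 (-1.39, adjusted p = 1.2e-07). KO1 was above KO2 for SLC26A11 (3.25, adjusted p = 0.0089) and SLCO4A1 (2.23, adjusted p = 6.2e-05). Between the rescue clones, SLC12A8 was lower in Rescue1 than in Rescue2 (-1.12, adjusted p = 1.0e-04). Each clone is a single line, so clone and genotype cannot be told apart, and KO1 replicate 2 detected fewer genes than any other library.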

How the results depend on the processing

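Of 129 called pairs of member and comparison, none changed sign under any alternative run. Called throughout when each library was left out in turn were 82, and 47 lost their call at least once. With a replicate block 128 stayed called, SLC13A5 with TGF-β being lost, but the replicate numbers did not pair the libraries (correlations of their deviations from -0.082 to 0.047 over 55 pairs, 0 above 0.1). On the deposited log2 scale, where the transformation compresses differences so that few exceed 1, the counts of called members were 1 for TGF-β, KO1 and KO2 against WT, 0 between the knockouts, 2 for the knockouts against TGF-β, 1 for the labelled KO2 rescue against KO2, for the rescue clones against the knockouts and against eGFP and for eGFP against WT, and 0 between the rescue clones and in the OCT2 and PRRX1 pools.

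Testing only genes with a mean of at least 50 normalized counts left fewer members: 6 with TGF-β, 13 in KO1, 11 in KO2, 5 between the knockouts, 11 for the rescue clones against the knockouts, 10 against eGFP, and 0 in the OCT2 and PRRX1 pools. With only the groups compared in the fit, which leaves fewer samples to estimate the spread, there were 3 with TGF-β, 15 in KO1, 3 between the knockouts, 0 between the rescue clones, 5 for eGFP against WT, and 0 in OCT2 and PRRX1. A pseudocount of 0.5 gave 1 in SOX2 and one of 5 gave 0 in OCT2. Leaving out 1 library gave 6 to 11 with TGF-β, 2 to 3 for the labelled KO2 rescue and 0 to 1 in OCT2 and PRRX1. Among uncalled differences, leaving out 1 library turned the sign of SLC26A6 between knockouts and TGF-β (-0.017 to 0.23), SLCO2A1 in KO2 (-2.44 to 0.49) and SLC22A5 in KO1 (-0.79 to 0.20). Setting each library to the same total moved the median of all genes by -0.39 in KO1 and 0.37 for the rescue clones against the knockouts. Against KO2 alone, a comparison chosen after seeing the data, 14 of 17 rescue calls held (SLC12A3, SLC13A3 and SLC4A8 were lost). Depth, with floors of 2.42 to 4.83 normalized counts, limits statements on the 49 untested members.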
